A study of Mus musculus with 12 samples.

Results

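Haem synthesis enzymes were followed in RNASeq libraries of mouse splenic T cells. The set was taken by gene symbol and held Alas1, Alas2, Alad, Uros, Urod, Cpox, Ppox and Fech, which are 8 of the 49315 genes in the count table. All 8 passed the filter on low counts in every comparison. The mice were 12-week-old males that received sham buffer (the vehicle) or the pressor hormone Ang II (angiotensin II). It was given over 14 days at a daily dose of 490 ng/kg from osmotic minipumps. WT mice, named in the methods as C57BL/6, and miR-214-/- mice, which lack this miRNA, gave the groups WT sham, WT Ang II, miR-214-/- sham and miR-214-/- Ang II. Each of the 4 groups held 3 mice with 1 library per mouse. The background of the miR-214-/- mice is stated for another experiment of the study only. The T cells were enriched from spleen by magnetic negative selection, which leaves behind any cell that the antibodies do not label.

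Haem is an iron-containing ring that carries oxygen in haemoglobin and electrons in cytochromes. Its synthesis starts and ends in mitochondria, with the middle steps in the cytosol, and nearly all cells make some. Red-cell precursors make by far the most and use their own form of the first enzyme, ALAS2, while other cells use ALAS1. The spleen of the mouse is also a site of red-cell formation.

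Promoter sequences are given for Alas2 and Cpox, which stood for the 2 different patterns across libraries described below. The sequences came from RefSeq (GRCm38.p6), which gave 10 promoter windows of 300 bases for 7 of the enzymes, from 250 bases before a start site to 50 after it. Fech had no entry. Capitals mark exact matches, on either strand, to a GATA motif (NGATAN, with adenine or thymine as its first letter and a purine as its last) or to CACCC, letters that GATA and KLF family factors are known to bind. On the strand printed here all of these matches lie in reverse complement. Alas2 is shown at chrX:150547167-150547404 on the plus strand, ending 13 bases before the start site, and Cpox at chr16:58669958-58670207 on the plus strand, ending 1 base before it.
Alas2: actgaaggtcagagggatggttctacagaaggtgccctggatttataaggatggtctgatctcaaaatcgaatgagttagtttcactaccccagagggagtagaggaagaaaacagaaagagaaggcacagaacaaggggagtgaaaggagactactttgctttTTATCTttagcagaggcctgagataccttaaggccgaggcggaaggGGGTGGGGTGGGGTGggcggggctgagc
Cpox: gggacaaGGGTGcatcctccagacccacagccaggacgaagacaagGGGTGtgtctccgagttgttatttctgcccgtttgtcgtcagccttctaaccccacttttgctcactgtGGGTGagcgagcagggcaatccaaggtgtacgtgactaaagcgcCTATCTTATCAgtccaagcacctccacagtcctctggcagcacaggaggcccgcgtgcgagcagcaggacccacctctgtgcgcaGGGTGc

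The Alas2 promoter held 1 GATA match, which began 86 bases before the start site, and 3 CACCC matches side by side, which began 40, 35 and 30 bases before it. GENCODE starts this gene earlier than RefSeq, so the last 42 bases before the RefSeq start site lie in an annotated exon. The 3 CACCC matches of Alas2 fall within those bases. Cpox held 3 GATA matches and 4 CACCC matches. A pair of its GATA matches began 91 and 86 bases before the start site and overlapped by 1 letter, and the other lay just after the start site. The only other window with a GATA match was 1 of the 2 of Uros, which held 2, so 3 of the 10 windows had one. A GATA match was present in 29.8% of 32851 promoter windows of all genes and a CACCC match in 57.5%, so either match alone is common. CACCC was present in 6 of the 10 windows of the enzymes. TATAAA was found in 1 window, that of Alas2, at 209 bases before the start site and in reverse complement, and in 13.6% of all windows. The letters CCACACCC (3.56% of all windows) and TGACTCA (5.2%) were in none of the 10. These are matches of letters, and the counts per gene do not tell which start site was used.

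The libraries held between 21126874 and 29605988 counts. The gene for miR-214 itself was at 0 counts in all 12 libraries, WT included, so the poly(A) counts could not check the genotype. T cell markers were present at 3213 to 5756 CPM (counts scaled to the library total, after TMM scaling) summed over 11 genes, and none of the 11 was at 0 in any library. Red-cell markers were present too. Their sum over 15 genes was 342.5 to 529.4 CPM in WT sham, 1501 to 5683 in WT Ang II, 293.4 to 680 in miR-214-/- sham and 588.5 to 4574 in miR-214-/- Ang II, and again none was at 0 in any library. In WT, 11 of the 15 red-cell markers were called higher with Ang II, beside 7.01% of all genes. Of the 11 T cell markers 0 were called lower, with log2 fold changes between -0.62 and -0.35 (median -0.54). On the adjusted p alone, at 0.05 in edgeR, 8 of the 11 were lower, beside 1131 of the 16012 genes tested. Neutrophil markers (7 of 7), cell cycle genes (11 of 12) and basophil and mast cell markers (4 of 4) were called higher in the same comparison. Only 1 of 9 macrophage and monocyte markers and 1 of 5 megakaryocyte markers were called higher, beside the 7.01% of all genes. The median log2 fold changes of these lists were 0.63 and 1.21. No B cell (5 genes), plasma cell (3) or NK cell (2 tested) marker was called. In bulk samples more cells of a type and more RNA per cell cannot be told apart. The part of these other cells in the changes of the enzymes was not tested, and their values are given beside the results.

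Most haem synthesis enzymes were higher after Ang II in WT T cell libraries. Alad, Urod, Cpox and Fech were called higher, with fold changes between 2.13 and 5.36. Alas1 and Uros rose by less than 2-fold, while Alas2 (adjusted p = 0.0551) and Ppox (adjusted p = 0.123) missed the threshold in edgeR. Calls needed both an adjusted p under 0.05 from edgeR's quasi-likelihood test and an absolute log2 fold change over 1. Thus 4 of 8 enzymes were called higher, against 7.01% of the 16012 genes tested, and 6 of 8 rose at an adjusted p under 0.05, against 11.7%. The 3 Ang II libraries lay above the 3 sham libraries for 7 of 8 enzymes, against 19.1% of all genes. The median log2 fold change of the 8 enzymes was 1.42, and that of all genes tested was -0.02. The enzymes were chosen with earlier results of these data known, so these contrasts with all genes are descriptive. Leaving out 1 library at a time gave between 2 and 5 enzymes called. It was 2 without replicate 1 of WT sham, where Alad and Cpox missed the threshold, and also 2 without replicate 2 of WT Ang II, where Alad and Urod did.

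In miR-214-/- T cell libraries none of the 8 enzymes was called after Ang II, and 3 of them (Alas1, Alas2 and Fech) had an unadjusted p under 0.05 in edgeR, against 12.2% of all genes. The background of calls in edgeR was 0.0% of 15937 genes. DESeq2 also called none of the enzymes, while it called 28 genes higher and 23 lower (0.393% of the 12965 with an adjusted p). The median log2 fold change of the enzymes was 0.25, and that of all genes was 0.03. Both Ang II against sham comparisons are shown side by side in the plot of fold changes.

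**Figure D1:**
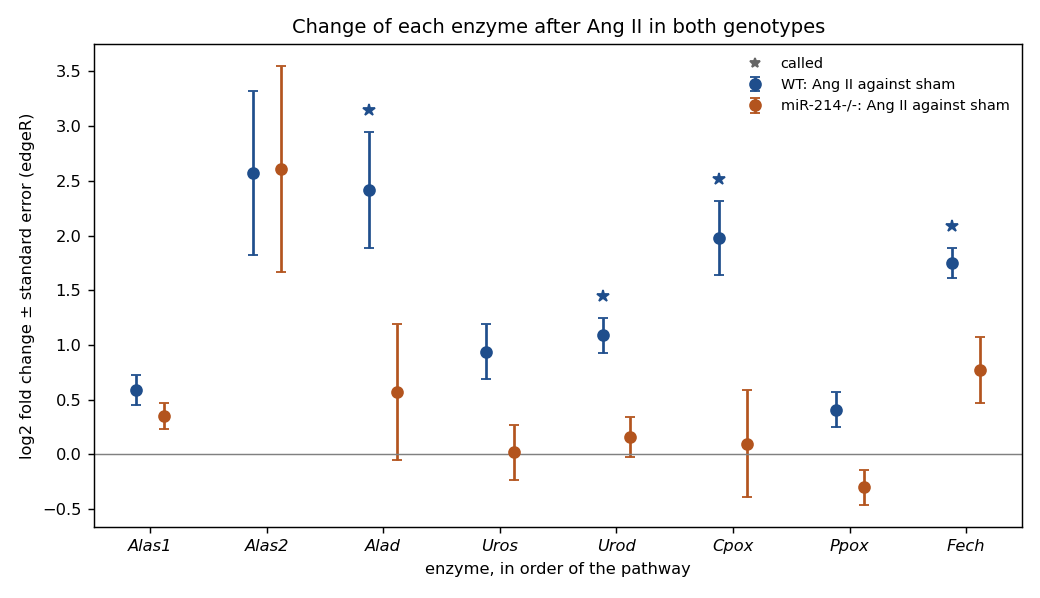
The log2 fold change (vertical axis) with its standard error from edgeR is plotted for each enzyme along the horizontal axis, with the effect of Ang II in WT in blue and in miR-214-/- in orange. Stars mark called genes, which were Alad, Urod, Cpox and Fech in WT and none in miR-214-/-, while the 2 values of Alas2 (2.57 and 2.61) lie close together with large errors.

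The first step was split between its 2 enzymes. Alas1 encodes the 5-aminolevulinate synthase of most tissues, whose level is held down by haem, and lies at chr9:106233455-106248654 (minus strand). It was at 22.1, 23.2 and 24.1 CPM in WT sham and at 38.0, 28.1 and 36.5 CPM in WT Ang II. All 3 Ang II libraries were above all sham libraries, and the spread within groups was small. The rise was 1.501-fold (log2 fold change 0.59 ± 0.14, SE, edgeR adjusted p = 0.0295), but it passed the adjusted threshold in only 2 of 6 fits without 1 library (adjusted p between 0.0123 and 0.104). In miR-214-/- the values were 29.2, 23.4 and 28.5 CPM in sham and 37.4, 32.7 and 32.6 CPM in Ang II. These groups did not overlap either, with a log2 fold change of 0.35 ± 0.12 (edgeR adjusted p = 0.36).

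Alas2 encodes the erythroid form of the same enzyme and lies at chrX:150547375-150570638 (plus strand). In WT sham it was at 25.8, 13.9 and 23.7 CPM, and in WT Ang II at 264.3, 76.7 and 28.9 CPM. Replicate 1 of WT Ang II was therefore 9.14 times as high as replicate 3 of the same group, and the lowest Ang II library lay just above the highest sham library. The fitted log2 fold change was 2.57 ± 0.75 (edgeR adjusted p = 0.0551), and it was past the threshold with DESeq2 (adjusted p = 0.0187), with no filter (0.0171) and without replicate 3 of WT Ang II (0.0316). That last fit was the only 1 of 6 without 1 library to pass (edgeR adjusted p up to 0.148). Over these 6 fits the log2 fold change ranged from 1.34 to 3.03. In miR-214-/- Alas2 was at 13.2, 16.7 and 14.1 CPM in sham and at 16.8, 224.2 and 27.6 CPM in Ang II. Only replicate 2 of miR-214-/- Ang II was far above the sham libraries. The log2 fold change was 2.61 ± 0.94 (edgeR adjusted p = 0.361), and without that library it was 0.59. Alas1 and Alas2 were the 2 enzymes whose miR-214-/- groups did not overlap, against 8.86% of all genes. Exons of Alas2 share 311 bases with Apex2 on the opposite strand (12.9% of its exon bases), and reads from such stretches are uncertain because the strand setting of the counting is not given in the sources used here.

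The next enzymes work in the cytosol. Alad encodes aminolevulinate dehydratase, which joins a pair of aminolevulinate molecules to porphobilinogen, and lies at chr4:62509169-62519918 (minus strand). It was at 19.8, 18.3 and 27.1 CPM in WT sham and at 35.5, 138.6 and 169.4 CPM in WT Ang II. Here replicate 1, the library with the most Alas2, was the lowest of the Ang II libraries. The log2 fold change in WT was 2.42 ± 0.53 (5.36-fold, edgeR adjusted p = 0.0244). The call was lost in 5 of 6 fits without 1 library (adjusted p up to 0.0894), and it was kept without replicate 1 of WT Ang II. In miR-214-/- Alad was at 20.9, 51.4 and 43.5 CPM in sham and at 114.5, 30.9 and 24.8 CPM in Ang II. A single Ang II library, replicate 1, was above the sham libraries, and the other two lay within their range. The log2 fold change of 0.57 ± 0.62 (edgeR adjusted p = 0.726) became -0.47 without that library.

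Uros encodes uroporphyrinogen III synthase, which closes the ring, and lies at chr7:133686243-133710072 (minus strand). It was at 20.2, 25.0 and 17.99 CPM in WT sham and at 26.1, 51.5 and 42.4 CPM in WT Ang II. All Ang II libraries were higher, though replicate 1 only just, and the log2 fold change was 0.94 ± 0.25 (edgeR adjusted p = 0.0409). It passed the adjusted threshold in 1 of 6 fits without 1 library, the fit without replicate 1 of WT Ang II (1.17, adjusted p = 0.00393). In miR-214-/- sham it was at 19.2, 30.9 and 25.6 CPM and in miR-214-/- Ang II at 33.6, 22.4 and 20.1 CPM. Replicate 1 of miR-214-/- Ang II was above the sham libraries and the other two lay within their range, with a log2 fold change of 0.02 ± 0.25 (edgeR adjusted p = 0.981).

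Urod encodes uroporphyrinogen decarboxylase, the last cytosolic enzyme, and lies at chr4:116989965-116994413 (minus strand). It was at 33.6, 39.6 and 41.5 CPM in WT sham and at 62.1, 96.6 and 82.0 CPM in WT Ang II. The groups were clearly apart with little spread, and the rise was 2.13-fold (log2 fold change 1.09 ± 0.16, edgeR adjusted p = 0.00741). The adjusted p stayed under 0.05 in all 6 fits without 1 library, while the log2 fold change fell to 0.94 without replicate 2 of WT Ang II, under the threshold of fold. In miR-214-/- Urod was at 41.4, 50.3 and 47.7 CPM in sham and at 62.5, 54.0 and 38.2 CPM in Ang II. The lowest and the highest of these libraries were both from Ang II, and the log2 fold change was 0.16 ± 0.18 (edgeR adjusted p = 0.742).

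The last enzymes act in or on the mitochondrion. Cpox encodes coproporphyrinogen oxidase and lies at chr16:58670292-58717636 (plus strand). It was at 41.5, 52.1 and 51.8 CPM in WT sham and at 94.6, 253.5 and 218.2 CPM in WT Ang II. As with Alad, replicates 2 and 3 of WT Ang II were highest and replicate 1 was lower, but still above all sham libraries. The log2 fold change was 1.98 ± 0.34 (3.95-fold, edgeR adjusted p = 0.0113), and the call was lost only without replicate 1 of WT sham (adjusted p = 0.0553). In miR-214-/- Cpox was at 44.8, 106.5 and 90.3 CPM in sham and at 150.7, 61.0 and 45.7 CPM in Ang II. Again a single Ang II library stood above the sham range, and the log2 fold change of 0.10 ± 0.49 (edgeR adjusted p = 0.946) became -0.59 without it. Cpox shares 204 exon bases with Gpr15 on the opposite strand (3.1% of its exon bases).

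Ppox encodes protoporphyrinogen oxidase and lies at chr1:171275990-171281186 (minus strand). It moved least of the 8 in WT, with 46.9, 48.4 and 35.6 CPM in sham and 47.7, 68.8 and 55.4 CPM in Ang II. The groups overlapped, and the log2 fold change was 0.41 ± 0.16 (edgeR adjusted p = 0.123). In miR-214-/- it was at 43.6, 59.5 and 54.2 CPM in sham and at 50.8, 37.6 and 38.3 CPM in Ang II. It was the only enzyme with a lower mean after Ang II in this genotype (log2 fold change -0.30 ± 0.16, edgeR adjusted p = 0.48). Ppox has the largest overlap of the 8 with another gene, 791 exon bases shared with B4galt3 on the opposite strand (17.5% of its exon bases).

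Fech encodes ferrochelatase, which inserts the iron, and lies at chr18:64452914-64490251 (minus strand). It was at 37.0, 33.3 and 42.0 CPM in WT sham and at 139.9, 132.4 and 98.9 CPM in WT Ang II. Unlike Alas2 and Alad it was similarly high in all 3 Ang II libraries, and it had the smallest adjusted p of the 8 (log2 fold change 1.75 ± 0.14, 3.35-fold, edgeR adjusted p = 0.00124). It was called in all 6 fits without 1 library, at log2 fold changes between 1.64 and 1.88. In miR-214-/- it was at 35.4, 54.2 and 46.1 CPM in sham and at 75.1, 108.1 and 46.2 CPM in Ang II. Replicates 1 and 2 of miR-214-/- Ang II were above the sham libraries while replicate 3 was within them, and the log2 fold change was 0.77 ± 0.30 (edgeR adjusted p = 0.391).

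**Figure D2:**
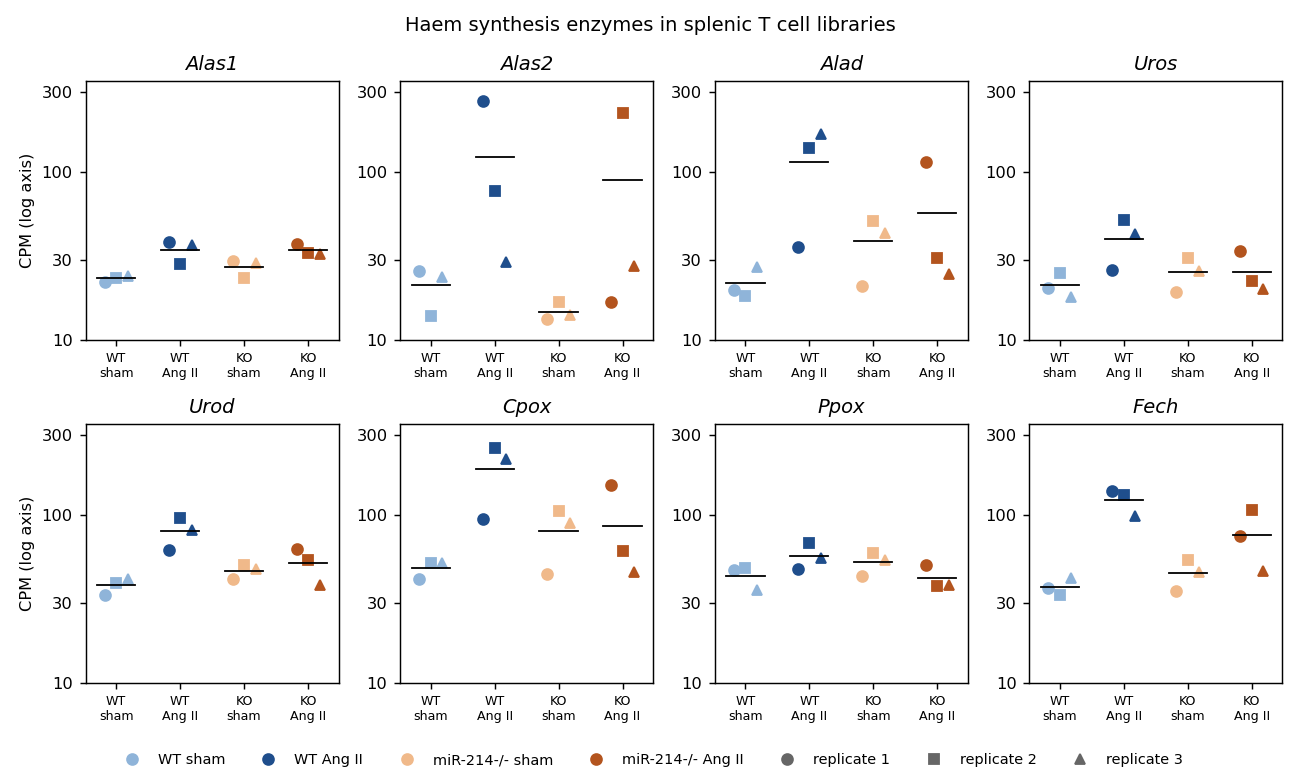
CPM of the 8 enzymes (vertical log axis) is plotted for each library by group (horizontal axis), with the replicate number as symbol and the mean of each group of 3 as a line. In Ang II groups the circles and squares change places between panels, so that WT Ang II replicate 1 is highest for Alas2 (264.3 CPM) and lowest for Cpox (94.6 CPM).

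Levels of different enzymes were set side by side per length only, as CPM per kb of the principal transcript. In WT sham Urod (25.7 ± 2.77, SD, n = 3) and Ppox (24.0 ± 3.84) were the highest and did not differ beyond their spread. They were followed by Alad (17.4 ± 3.80), Cpox (15.7 ± 1.95), Uros (11.9 ± 2.02), Alas2 (10.4 ± 3.13), Alas1 (6.81 ± 0.291) and Fech (5.70 ± 0.661), and each overlapped its neighbour except Alas1 and Fech, whose ranges were apart. The order depended on the length used. Per kb of all annotated exon bases Urod (14.8) was again first and Alas1 (3.75) and Fech (2.71) were again last, but Alad (11.6) came before Ppox (9.66), and Alas2 (8.79) before Cpox (7.28). In WT Ang II the order was Alad (91.8 ± 56.2), Cpox (61.0 ± 26.9), Alas2 (60.5 ± 61.1), Urod (53.9 ± 11.6), Ppox (31.5 ± 5.85), Uros (22.7 ± 7.28), Fech (18.8 ± 3.33) and Alas1 (10.1 ± 1.57), and the first 4 overlapped. Per kb of all exon bases the first 4 were Alad (61.2), Alas2 (51.3), Urod (31.0) and Cpox (28.3). Per kb of the principal transcript, in miR-214-/- sham Urod (31.2 ± 3.06) and Alad (30.9 ± 12.7) came first, and in miR-214-/- Ang II Alad (45.5 ± 40.2) and Alas2 (43.9 ± 57.3) did, both carried by 1 library each. All exon bases turned the order of both pairs. The sum of the 8 enzymes was 246.9 to 263.8 CPM in WT sham, 708.3 to 846.2 in WT Ang II, 247.7 to 392.7 in miR-214-/- sham and 273.4 to 570.9 in miR-214-/- Ang II. The sum thus varied less within WT Ang II than single enzymes did.

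Between genotypes no enzyme was called. In sham the miR-214-/- libraries had more Alad (log2 fold change 0.83 ± 0.32), Cpox (0.73 ± 0.28) and Urod (0.28 ± 0.11) at unadjusted p-values between 0.0323 and 0.0342, all at an edgeR adjusted p of 0.701. Of all genes, 6.67% had an unadjusted p under 0.05. The background of calls in this comparison was 0.0189% of 15913 genes. Replicates 2 and 3 of miR-214-/- sham carried these differences, while replicate 1 lay within the range of WT sham. Without replicate 1 of miR-214-/- sham, Cpox was called (log2 fold change 1.02, edgeR adjusted p = 0.0439) and the others were not. That fit called 27 genes higher and 3 lower (0.184% of 16279), against 0 and 3 with all libraries. Alas2 went the other way (-0.53 ± 0.23, edgeR adjusted p = 0.761). The groups overlapped for all 8 enzymes, while 5.39% of all genes were higher in miR-214-/- sham without overlap. The same 2 libraries had more red-cell markers other than globins (405 and 332.6 CPM over 11 genes, against 49.5 to 110.9 in WT sham and 58.3 in replicate 1), and the part of these in the difference was not tested.

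After Ang II, 7 of 8 enzymes were lower on average in miR-214-/- than in WT, from -0.43 for Ppox to -1.13 for Cpox on the log2 scale, with Alas1 at 0.003. None was called in edgeR (adjusted p between 0.569 and 0.995), at a background of 0.0% of 16215 genes, and 2 (Urod and Ppox) had an unadjusted p under 0.05, against 8.56% of all genes. DESeq2 called none of the enzymes either, and 4 genes higher and 17 lower over all genes (0.143% of 14729). All 8 overlapped between the genotypes, whereas 5.94% of all genes were lower in miR-214-/- Ang II without overlap. The standard errors were large, up to 1.13 for Alas2, so differences of the size seen were not resolved with 3 mice per group.

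The difference between the genotypes in the response to Ang II was tested as an interaction over all 12 libraries. No enzyme passed an adjusted p of 0.05 in edgeR, against 0.00596% of the 16770 genes tested. An unadjusted p under 0.05 was found for 5 of 8, against 14.8% of all genes. The estimates were negative for 7 of 8, with Cpox at -1.87 ± 0.67 (adjusted p = 0.257), Alad at -1.84 ± 0.90 (0.364), Fech at -0.96 ± 0.37 (0.281), Urod at -0.92 ± 0.27 (0.22), Uros at -0.91 ± 0.38 (0.309), Ppox at -0.70 ± 0.25 (0.256) and Alas1 at -0.22 ± 0.18 (0.564). Alas2 was at 0.06 ± 1.28 (0.986). The median over the 8 was -0.92, and that of all genes was 0.01. DESeq2 called Urod (-0.95, adjusted p = 0.0317), against 3.22% of the 13790 genes to which it gave an adjusted p. Without replicate 1 of miR-214-/- Ang II, edgeR called Urod (-1.08, adjusted p = 0.0427) and Cpox (-2.55, adjusted p = 0.033). Leaving out that library raised the calls over all genes from 1 to 919 of 17172 (5.35%), so the calls of these enzymes came with many others.

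**Figure D3:**
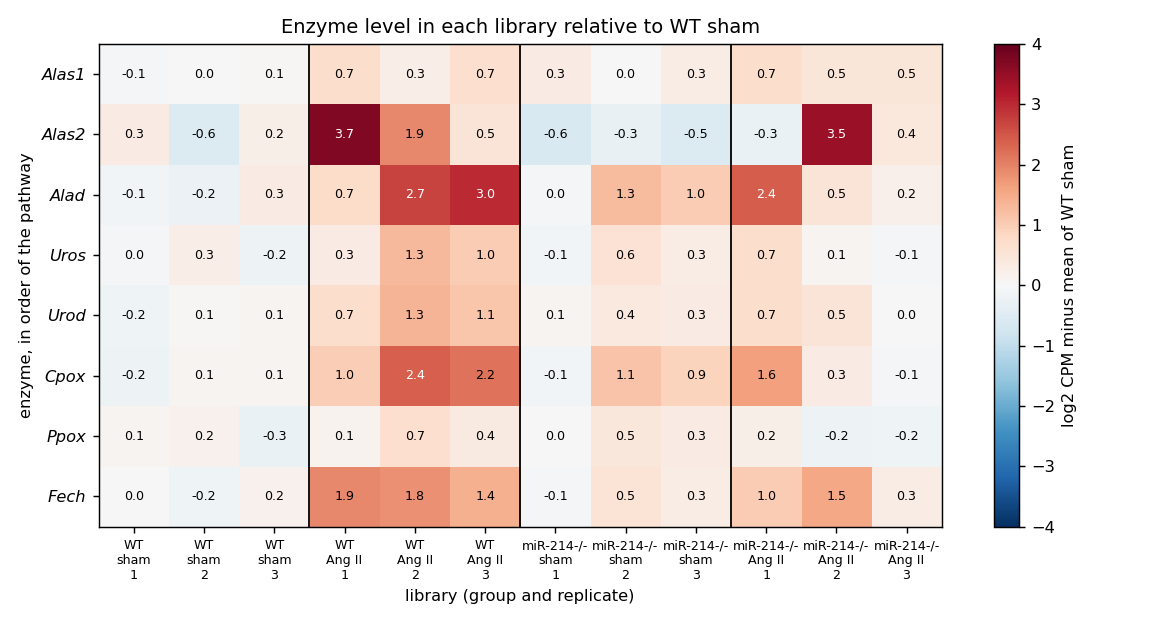
Each cell gives the log2 CPM of an enzyme (rows, in the order of the pathway) in a library (columns) minus the mean of WT sham, in red where higher. Alas2 is highest in WT Ang II 1 and miR-214-/- Ang II 2, whereas Alad and Cpox are highest in WT Ang II 2, WT Ang II 3 and miR-214-/- Ang II 1.

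Alas2 on the one hand and Alad, Uros, Urod and Cpox on the other followed 2 patterns across libraries. Replicate 1 of WT Ang II and replicate 2 of miR-214-/- Ang II had the most Alas2. Replicates 2 and 3 of WT Ang II and replicate 1 of miR-214-/- Ang II had the most Alad, Uros, Urod and Cpox, and among these the order of the first 3 libraries differed for Alad only. Over the 12 libraries, Pearson's r of log2 CPM was 0.97 between Cpox and Alad, 0.96 between Cpox and Uros and 0.94 between Cpox and Urod. Alas2 had an r of 0.09 with Alad, 0.13 with Uros and 0.17 with Cpox, but 0.42 with Urod, so the patterns were not fully apart. Fech stood between them, with 0.80 to Alas2 and 0.72 to Cpox, and Ppox was at 0.78 with Cpox and -0.11 with Alas2. These are descriptions over libraries that share treatment, depth and cell composition.

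**Figure D4:**
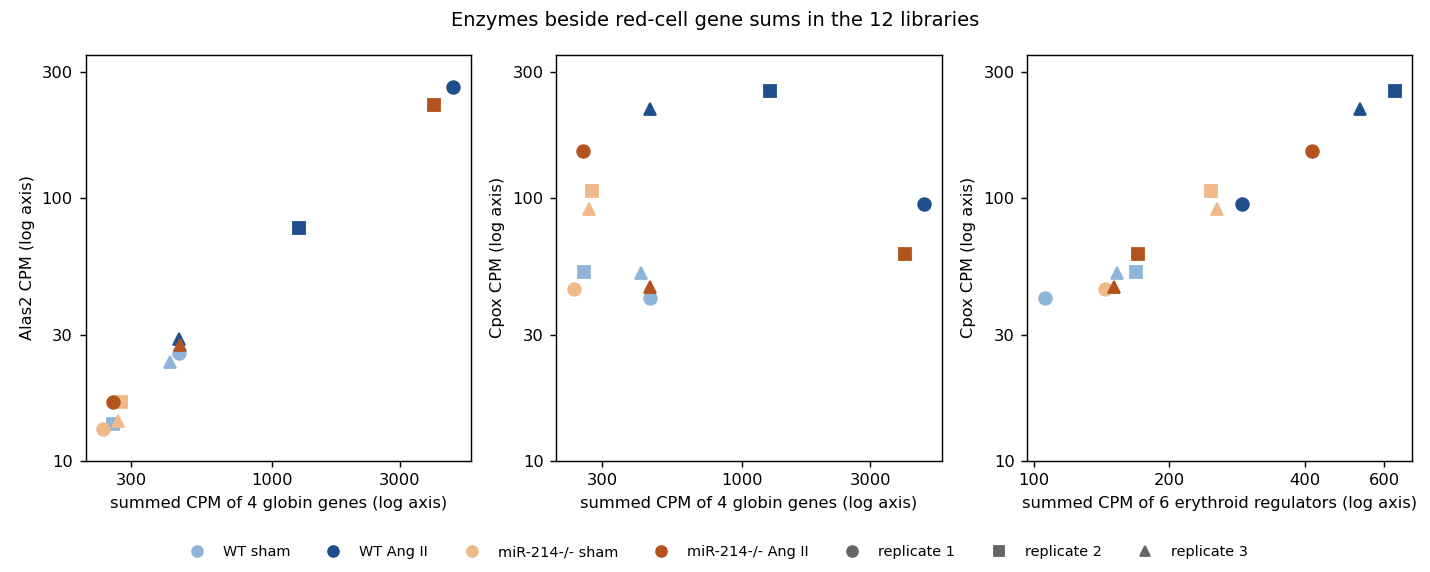
CPM of Alas2 (left) and Cpox (middle and right) in the 12 libraries is plotted on log axes against the summed CPM of 4 globin genes or of 6 erythroid regulators, with groups as colours and replicates as symbols. Alas2 follows the globin sum along a line and Cpox does not, while Cpox rises with the sum of the erythroid regulators, of which Zfpm1 was 29.2% to 70.9%.

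Alas2 kept a nearly constant ratio to the globins. Alas2 per 1000 CPM of Hba-a1, Hba-a2, Hbb-bs and Hbb-bt was 54.2 to 57.3 in WT sham, 55.6 to 64.3 in WT Ang II, 52.8 to 60.6 in miR-214-/- sham and 55.5 to 65.7 in miR-214-/- Ang II. The highest ratio was 1.24 times the lowest, while the CPM of Alas2 itself varied 19.95-fold over the same libraries. The globins, the protein chains of haemoglobin, were chosen as a subset of the red-cell markers after the values were seen. Against the other 11 red-cell markers the ratio of Alas2 varied 20.9-fold. The globin sum was 450.2 to 4756 CPM in WT Ang II and 255.2 to 4041 in miR-214-/- Ang II. The globin genes have near-identical copies, so that counts of unique reads place them uncertainly.

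Cpox moved with the erythroid regulators Gata1, Klf1, Nfe2, Tal1, Zfpm1 and Epor, which are factors and a receptor of the red-cell lineage. Cpox per 1000 CPM of their sum lay between 303 and 430 in all 12 libraries, a range of 1.42-fold, while the CPM of Cpox varied 6.11-fold. Zfpm1, the only one of the 6 not called higher with Ang II in WT, made up between 29.2% (WT Ang II replicate 2) and 70.9% (WT sham replicate 3) of that sum. Against the other 5 regulators, a sum chosen after the values were seen, the ratio of Cpox varied 2.36-fold, so its narrow range rested on Zfpm1. The ratio of Cpox to the globins varied 39.1-fold. Against all 6 regulators Alad varied 2.95-fold, and 9.26-fold in CPM. Urod varied 2.11-fold against them and 2.88-fold in CPM, but 4.57-fold against the 5 without Zfpm1. For Alas1 and Ppox the ratio to the 6 regulators varied more (4.88-fold and 4.25-fold) than their own CPM did (1.72-fold and 1.93-fold). Cpox also had an r of 0.98 with the mean log2 CPM of the erythroid regulators, 0.92 with that of cell cycle genes and -0.91 with that of T cell markers. The sum of 3 plasma cell markers was highest in the libraries with the most Cpox as well. It was 1311 and 1565 CPM in replicates 2 and 3 of WT Ang II and 1017 CPM in replicate 1 of miR-214-/- Ang II. The part of these cell types in the values of Cpox was not tested.

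Genes near to Alas2 by Pearson's r of log2 CPM over the 12 libraries were Hba-a1 (0.997), Hbb-bt (0.997), Hbb-bs (0.995) and Rsad2 (0.958), which encodes the antiviral protein viperin. Those nearest to Fech were Gpx1 (0.98), a glutathione peroxidase, Specc1 (0.974), Dhrs11 (0.969), Slc25a37 (0.969), the mitochondrial iron importer mitoferrin-1, and Eif2ak1 (0.968), the haem-regulated eIF2 alpha kinase. Alas1 had a different set, namely Plcb1 (0.97), a phospholipase C, F13a1 (0.958), a subunit of coagulation factor XIII, Dock1 (0.952), Nrg1 (0.95) and Papss2 (0.95). Its r was 0.87 with the mean of neutrophil markers, 0.39 with that of globins and 0.61 with that of the other 11 red-cell markers. For Fech these were 0.81, 0.75 and 0.90, and for Alas2 they were 0.69, 1.0 and 0.49. Neutrophil markers summed to 185.1 to 230.5 CPM in WT sham, 1026 to 3132 in WT Ang II, 215.9 to 890.9 in miR-214-/- sham and 533.3 to 2924 in miR-214-/- Ang II. Replicate 1 of WT Ang II (3132 CPM) and replicate 2 of miR-214-/- Ang II (2924 CPM) had the highest neutrophil sums and also the most Alas2. The part of neutrophils in the values of Alas1, Alas2 and Fech was not tested.

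Some other genes that serve haem were higher after Ang II in WT as well. The 6 lists held 44 genes, of which 6 were erythroid regulators and not genes that handle haem or iron. Of the 44, 14 were called higher and 0 lower in edgeR (32 had an unadjusted p under 0.05 in either direction), with a median log2 fold change of 0.57. Erythroid regulators gave 5 of the 14 calls. Over all genes 7.01% were called higher and 35.6% had such a p. The lists, like the enzymes, were chosen with earlier results of these data known, so these contrasts are descriptive. None of the 44 was called in miR-214-/- (5 at an unadjusted p under 0.05, against 12.2% of all genes, median 0.12). None was called for the interaction (21 at an unadjusted p under 0.05, against 14.8% of all genes, median -0.44).

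Among 15 genes of mitochondrial transport and iron-sulphur assembly, 5 were called higher in WT. The smallest p-values were those of the iron importer Slc25a37 (log2 fold change 1.48, edgeR adjusted p = 0.0027), Isca1, which helps to assemble iron-sulphur clusters (0.68, 0.00376), and Abcb10, a transporter of the inner mitochondrial membrane (2.88, 0.00461). Abcb10 was at 11.7, 16.2 and 15.9 CPM in WT sham and at 54.0, 149.5 and 114.6 CPM in WT Ang II. It was thus highest in the libraries with the most Cpox. Abcb6 (1.46), Tmem14c (1.17) and Glrx5 (1.05) were the other called genes. The genes that supply substrate, Sucla2, Suclg2, Shmt2 and Suclg1, were not called, with log2 fold changes between 0.11 and 0.29, and only 1 of the 4 had an unadjusted p under 0.05 in edgeR.

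For iron, Tfrc, the transferrin receptor (log2 fold change 1.84, edgeR adjusted p = 0.00303), and Steap3, a ferrireductase of the endosome (3.05, 0.021), were called higher among 6 genes. Fth1, the heavy chain of ferritin, rose by less (0.48, 0.00675). Of the 8 genes of haem breakdown and transport, Hebp1, a haem-binding protein (2.16, 0.00277), and Blvrb, a biliverdin reductase (2.32, 0.00493), were called, and Slc48a1, a haem transporter, rose by less than 2-fold (0.65, 0.0208). Hmox1, the inducible haem oxygenase, had a log2 fold change of 0.54 (edgeR adjusted p = 0.562). None of 5 haem and iron regulators reached 2-fold. Eif2ak1 (0.55, edgeR adjusted p = 0.00273), Aco1, the iron regulatory protein that doubles as cytosolic aconitase (0.50, 0.0223), and Nfe2l2, a factor of the oxidative stress response (0.35, 0.0339), rose, and Bach1, the haem-sensing repressor, was at 0.01 (0.941). In contrast, 5 of 6 erythroid regulators were called, led by Nfe2 (2.12, edgeR adjusted p = 0.00353), Gata1 (2.27, 0.0118) and Tal1 (2.77, 0.0129), with Epor at 3.11 (0.0137) and Klf1 at 3.06 (0.0149). Zfpm1 was at 0.75 (0.0561).

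**Figure D5:**
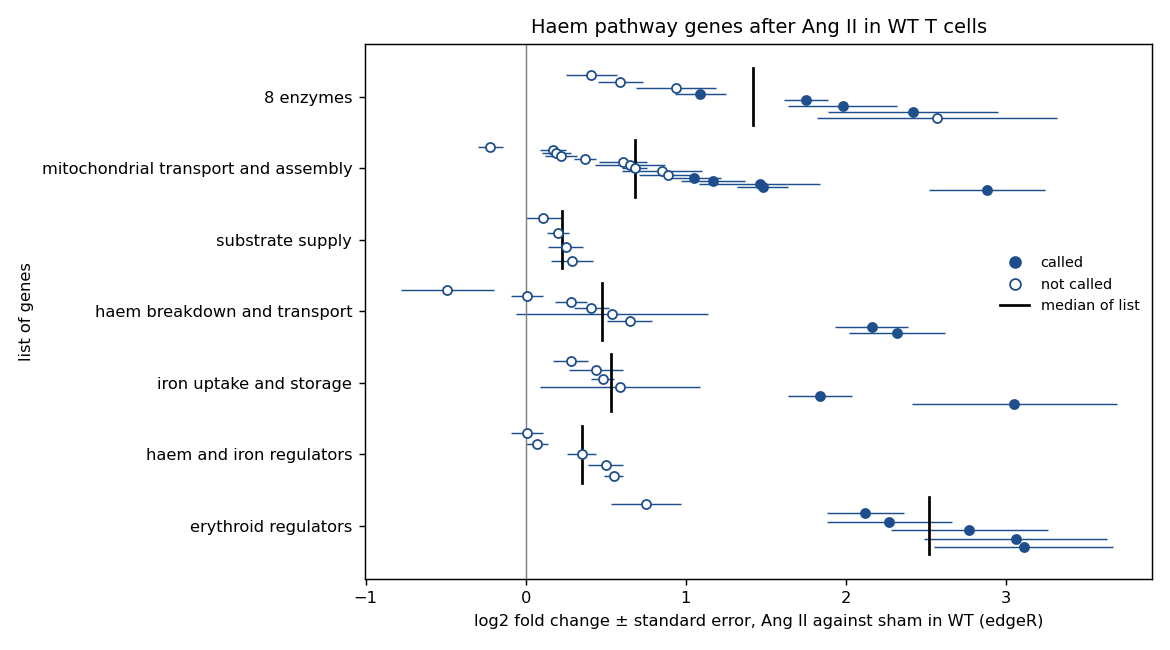
Log2 fold changes of Ang II against sham in WT (horizontal axis, with standard errors from edgeR) are plotted for the 8 enzymes and 6 further lists of haem pathway genes and erythroid regulators (vertical axis), with filled circles for called genes and a bar at the median of each list. The medians are 1.42 for the 8 enzymes, 0.22 for substrate supply and 2.52 for erythroid regulators.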

How the data were processed

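The authors trimmed paired-end reads of poly(A) libraries with Trimmomatic, mapped them to GRCm38 with STAR and counted unique exonic reads per gene with featureCounts (Subread 1.5.2, per the labels). They deposited raw counts without normalization. Of 49315 gene identifiers, 49056 matched GENCODE annotation of GRCm38. The 259 others, with 0.0245% of counts, stayed in the tests. Stranded kits were used, but the strand setting of the counting and the annotation release are not given in the sources used here. None of 12 pairs of libraries within a group was identical (0 pairs).

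Counts were tested in R 4.3.3 with edgeR 4.0.16 (filterByExpr, TMM, quasi-likelihood test with Benjamini-Hochberg adjustment over all genes tested), within the groups compared or, for the interaction, over all 12 libraries. The interaction was called on the adjusted p alone. DESeq2 1.42.0 (independent filtering at 0.1) was an alternative. The scripts were tested on simulated data. CPM used TMM factors over all libraries, and correlations used log2 CPM with a prior count of 2. Where a library has no count for a gene, up to 3 counts are allowed for, which covers counting error only. The enzymes and gene lists were chosen with earlier results of these data known. All 8 enzymes, the 3 genes of each list with the smallest p in WT, others for their role, and the 5 genes nearest to Alas2, Alas1 and Fech (mean log2 CPM above 1) were to be named, of which a few are left out here. Levels per kb were planned over all exon bases, and the principal transcript (APPRIS tags of GENCODE) was added after the data were seen, and motifs were matched exactly. Other alternatives were RLE or library size scaling, no filter, 10 counts in every library, the adjusted-deviance fit, a replicate block, a single fit over all groups and leaving out each library.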

Additional observations from a re-analysis of the deposited data

Results flagged for a closer look

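Ppox, the next to last enzyme, was flagged because its response to Ang II pointed in opposite directions in the 2 genotypes. Each WT Ang II library (47.7, 68.8 and 55.4 CPM) was above the mean of WT sham, and each miR-214-/- Ang II library (50.8, 37.6 and 38.3 CPM) was below the mean of miR-214-/- sham. The sham and Ang II libraries overlapped in both genotypes. Neither change passed the threshold (edgeR adjusted p = 0.123 in WT and 0.48 in miR-214-/-). The interaction was -0.70 ± 0.25 on the log2 scale (unadjusted p = 0.0166, edgeR adjusted p = 0.256), so it did not pass the adjusted threshold.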

How the results depend on the processing

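The number of enzymes called in WT was 4 with edgeR, 5 with DESeq2 and with no filter, 4 under the other alternatives and 2 to 5 without 1 library. In miR-214-/- and between the Ang II groups it was 0 throughout. Between the sham groups it was 0, and 0 to 1 without 1 library. For the interaction it was 0 with edgeR, 1 with DESeq2 and 0 to 2 without 1 library, while over all genes 1, 444 and 0 to 919 were called. With a replicate block the counts were 4 in WT and 0 elsewhere. Same-numbered libraries did not deviate together (correlations 0.199, 0.111 and -0.137 in WT and -0.56, -0.232 and -0.368 in miR-214-/-), so the numbers were not read as pairs and not every library was nearest to its own number.

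Directions that turned were those of values near 0 or carried by 1 library, and the cause was not tested. Cpox in miR-214-/- was -0.06 with the replicate block. Alas1 between the Ang II groups was -0.01 with DESeq2 and RLE scaling, -0.03 with library size scaling and -0.0021 with 10 counts in every library. The interaction of Alas2 was -0.07 with library size scaling. Without 1 library, the log2 fold change in miR-214-/- ranged from -0.47 to 0.92 for Alad, -0.24 to 0.19 for Uros, -0.01 to 0.33 for Urod and -0.59 to 0.40 for Cpox. Between the Ang II groups it ranged from -0.13 to 0.10 for Alas1 and -2.48 to 0.77 for Alas2, and the interaction of Alas2 ranged from -1.96 to 1.29. With 3 mice per group and such spread, absence of a call does not show that levels were alike.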
